A study of Homo sapiens with 6 samples.

Results

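The H3AcK9 landscape of SKOV3 cells after vorinostat was compared with that of untreated SKOV3 cells. SKOV3 wt is an established human ovarian carcinoma cell line of epithelial origin. The cells compared here were either left untreated or exposed to vorinostat at 1 times the IC50 for 24 h before harvest, and carried no other agent or genetic change in the labels. H3AcK9, histone 3 acetylated at lysine 9, was then immunoprecipitated and the DNA sequenced. The comparison uses 2 of the 6 samples of the series and 3 of its 5 peak lists, chosen by treatment label, on chromosomes 1 to 22 and X. Each condition is a single immunoprecipitation, so differences have no replicate check and no test is given. The company that sequenced the vorinostat sample divided it in 2, and the resulting 2 lists are counted as 1 sample whose spread is technical. The untreated list held 376513 peaks on these chromosomes, the first vorinostat list 911992 and the second 912970. Read depth per library is unknown, since the lists hold no read numbers. All peak and bin positions are in hg19 coordinates. Gene extents in hg19 were entered by hand from memory and checked against another build for chromosome, strand and length but not for position, so values over genes and near their starts rest on these entries, and values over bins do not.

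Acetylation of histone 3 at lysine 9 is written by histone acetyltransferases and removed by histone deacetylases (HDACs). The mark is known for sharp peaks at the starts of active genes and at active enhancers, where it goes with open chromatin. Vorinostat is a hydroxamate that binds the zinc ion of several HDACs and blocks them, so that acetyl groups stay on histones and other proteins. CDKN1A, which encodes the cell cycle inhibitor p21, is the textbook gene induced by HDAC inhibitors in tumour cells, and its promoter responds through GC boxes bound by Sp1.

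After vorinostat, peaks appeared within 2 kb of gene starts that had none in untreated cells, while other genes lost peaks. The start regions of 6 genes are shown as examples. They were chosen after their values were seen and taken from RefSeq (GRCh38.p14), each with 250 bases before and 50 after the RefSeq start. KIT and PDGFRA gained start peaks. CDKN1A carries the promoter known for HDAC inhibitors. SIRT1 and EGR1 lost bases over the gene, and LAMA2 lost its start peaks. Peaks were sought within 2 kb of the start, so they need not lie over the printed bases. By the entered positions, the untreated LAMA2 peaks lay on either side of the printed bases. Capitals mark the GC box letters GGGCGG on either strand and, in EGR1, the CArG boxes bound by serum response factor.
KIT: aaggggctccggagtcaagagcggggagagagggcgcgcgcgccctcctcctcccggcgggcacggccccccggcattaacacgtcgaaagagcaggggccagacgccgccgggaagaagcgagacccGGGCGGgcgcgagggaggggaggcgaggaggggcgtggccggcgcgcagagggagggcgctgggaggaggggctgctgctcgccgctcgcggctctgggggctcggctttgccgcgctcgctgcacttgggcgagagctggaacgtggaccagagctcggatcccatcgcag
PDGFRA: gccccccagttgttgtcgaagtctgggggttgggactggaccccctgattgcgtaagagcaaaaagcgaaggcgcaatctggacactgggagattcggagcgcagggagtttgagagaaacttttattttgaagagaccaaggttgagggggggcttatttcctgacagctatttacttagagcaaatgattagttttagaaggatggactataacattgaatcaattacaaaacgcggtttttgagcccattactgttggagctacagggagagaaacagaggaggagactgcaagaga
CDKN1A: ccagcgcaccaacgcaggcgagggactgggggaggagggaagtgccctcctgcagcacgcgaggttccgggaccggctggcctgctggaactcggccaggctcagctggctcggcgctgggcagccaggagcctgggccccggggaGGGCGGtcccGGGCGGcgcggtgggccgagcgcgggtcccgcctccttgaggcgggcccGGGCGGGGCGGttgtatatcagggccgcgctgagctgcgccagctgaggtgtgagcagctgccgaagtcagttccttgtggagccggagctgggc
SIRT1: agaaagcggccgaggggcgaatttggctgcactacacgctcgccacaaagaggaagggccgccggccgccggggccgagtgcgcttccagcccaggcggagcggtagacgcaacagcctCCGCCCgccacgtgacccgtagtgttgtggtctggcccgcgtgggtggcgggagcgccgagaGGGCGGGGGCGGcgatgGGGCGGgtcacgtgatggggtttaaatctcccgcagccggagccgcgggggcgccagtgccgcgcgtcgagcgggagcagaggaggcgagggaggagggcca
EGR1: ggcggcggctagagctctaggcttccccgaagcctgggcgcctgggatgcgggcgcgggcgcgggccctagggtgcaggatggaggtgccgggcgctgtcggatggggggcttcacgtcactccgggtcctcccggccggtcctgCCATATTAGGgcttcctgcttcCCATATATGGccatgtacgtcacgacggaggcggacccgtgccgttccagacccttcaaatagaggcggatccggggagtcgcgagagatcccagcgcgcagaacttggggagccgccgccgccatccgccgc
LAMA2: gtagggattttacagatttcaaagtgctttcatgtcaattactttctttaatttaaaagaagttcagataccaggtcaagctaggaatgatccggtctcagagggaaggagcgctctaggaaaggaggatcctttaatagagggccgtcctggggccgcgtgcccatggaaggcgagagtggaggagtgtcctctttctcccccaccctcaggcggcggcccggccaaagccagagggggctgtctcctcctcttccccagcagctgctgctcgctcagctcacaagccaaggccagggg

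These sequences lie in GRCh38.p14 at chr4:54657707-54658006 for KIT, chr4:54229043-54229342 for PDGFRA, chr6:36678464-36678763 for CDKN1A, chr10:67884406-67884705 for SIRT1, chr5:138465229-138465528 for EGR1 and chr6:128882888-128883187 for LAMA2, all on the plus strand. The RefSeq start of CDKN1A lies 2254 bp inside the gene extent used for the counts below. The GC box letters occurred 4 times at CDKN1A, where the last pair overlaps, 4 times at SIRT1, 1 time at KIT, and not in the windows of PDGFRA, EGR1 and LAMA2. They occurred in 44.6% of all 27305 RefSeq promoters of this length. EGR1, an immediate early transcription factor, held 2 CArG boxes, a motif found in 1.29% of all promoters. KIT, the receptor of stem cell factor, had no untreated peak within 2 kb of its start, whereas the first vorinostat list had a peak at chr4:55524502-55526136 and the second at chr4:55524502-55526358. The PDGF receptor gene PDGFRA likewise had none in untreated cells. Both vorinostat lists held peaks there at chr4:55094274-55095110 and chr4:55096348-55096834. LAMA2 encodes a laminin chain of basement membranes. Its 2 untreated peaks near the start, of 467 and 571 bp, were matched by none in either vorinostat list. Of all untreated peaks under 500 bp, 53.6% had no base in either vorinostat list. For widths from 500 bp to under 1 kb the share was 31.9%.

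The lists do not share the same smallest width and gap, which bears on every count of peaks. The smallest gap between untreated peaks was 509 bp. In both vorinostat lists the smallest gap was 205 bp and the narrowest peak 51 bp, which is narrower than any untreated peak. Peaks separated by a gap smaller than 509 bp were therefore joined in each list alike, which leaves the untreated list as it is. Joining took the vorinostat lists to 625147 and 636598 peaks, whose median widths were 239 and 233 bp against 537 bp in untreated cells. Joined vorinostat peaks covered 402 and 386 Mb against 344 Mb in untreated cells, a mean fold of 1.14. As deposited, they covered 309 and 296 Mb, a mean fold of 0.879. The direction of the total thus turned on the joining, and the joined fold was 0.975 with gaps of up to 300 bp, 1.28 with gaps of up to 1000 bp and 0.717 for peaks with a deposited score of at least 1.

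Between the lists, where peaks lay differed more than how much of the genome they covered. Of the 344 Mb in untreated peaks, 52.4% was covered by joined peaks in each vorinostat list, and 164 Mb was left uncovered by each. Outside untreated peaks, the vorinostat lists covered 221 and 205 Mb. Bases shared by both vorinostat lists made up 65.4% of their union. Bases shared by untreated and vorinostat peaks made up 31.9% of the union for the first list and 32.9% for the second. The lists of the treated sample thus resembled each other more than either resembled the untreated list, and 77.5% of the first list's bases were in the second.

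Wide untreated peaks kept a larger share of their bases than narrow ones. Untreated peaks under 500 bp wide, 173957 in number, had 26.6% of their bases covered by joined vorinostat peaks. The share was 33.3% for widths from 500 bp to under 1 kb, 47.1% from 1 to under 2 kb and 69.8% from 2 to under 5 kb. It reached 83.8% from 5 to under 10 kb and 89.97% for the 924 peaks of 10 kb and more. The lists differed by less than 2 percentage points in each class. Of the narrowest class, 53.6% had no base in either vorinostat list, and among untreated peaks of 5 kb and more no such peak was found. A wider peak has more room to meet another, and no expectation by width was computed, so these counts are a description. An untreated peak of 10 kb and more held a mean of 8.24 deposited vorinostat peaks but 2.36 joined ones. The smallest gap differs between the lists, so the deposited number does not show that wide peaks broke up. Joined vorinostat peaks of 10 kb and more numbered 1474 and 1138, against 924 in untreated cells.

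The plot by width shows both lists close together in every class. New bases lay mostly beside old peaks. Joined vorinostat peaks covered 20.2% of the bases up to 1 kb from an untreated peak, 11.9% of those 1 to 2 kb away and 7.53% of those 2 to 5 kb away. Coverage went down to 4.20% at 5 to 10 kb, 1.97% at 10 to 50 kb, 0.800% at 50 to 100 kb and 0.168% farther out. The first list was the higher of the 2 up to 10 kb and the lower beyond it. Vorinostat peaks that touched no untreated peak were narrow. They made up 79.6% of the joined peaks under 500 bp in the first list and 78.3% in the second, but 0.217% and 0.133% of those from 5 to under 10 kb. Of the 1474 and 1138 joined peaks of 10 kb and more, each touched an untreated peak. Touching also depends on width, and no expectation by width was computed, so these shares are a description.

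At the scale of 1 Mb, gain was far more frequent than loss. A bin was called gained or lost where both vorinostat lists were past 1.5-fold of the untreated joined bases, among bins with at least 20 kb covered in either condition. Of 2485 such bins, 321 were gained, which is 12.9%, and 10 were lost, which is 0.402%. For scale, the 2 vorinostat lists were past 1.5-fold of each other in 15 bins, 0.604%. Both lists were higher than untreated in 1768 bins and lower in 470, and the median fold was 1.15. With bases taken relative to each list's total the split was 176 gained and 24 lost, with deposited peaks 97 and 94, and with a score of at least 1 it was 116 and 761. Of these bins, 162 had under 20 kb in untreated cells and entered only through their vorinostat value, a filter that favours gain, and 97 of them were gained. Among the 2323 bins with at least 20 kb in untreated cells, 224 were gained, which is 9.64%, and 10 were lost. In the 10% of bins with most untreated coverage 0% were gained, at a median fold of 1.06. In the second-lowest 10% by untreated coverage, each of which had at least 20 kb there, 21.4% were gained, at a median fold of 1.31. The untreated value enters both this ranking and the fold, so these shares are a description.

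Of the 8 bins with the highest folds, 7 had under 20 kb in untreated cells and entered only through their vorinostat value, so their high folds are a description. The genes named with them were chosen after the values were seen. The bin with the highest fold, chr11:133000001-134000000, went from 3.51 kb to 19.4 and 25.2 kb, a mean fold of 6.35. It holds part of OPCML, a cell adhesion gene, whose own extent was split between lists at 583 bases in untreated cells and 572 and 4060 after vorinostat. The bin chr5:2000001-3000000, with the homeobox gene IRX2, went from 5.71 kb to 34.7 and 36.4 kb, while IRX2 itself had 0 bases in untreated cells and 0 and 159 after vorinostat. At chr22:49000001-50000000, near TAFA5, 14.1 kb became 75.8 and 74.6 kb. The bin chr13:112000001-113000000, near SOX1, went from 18.4 kb to 84.7 and 85.2 kb. SOX1 itself stayed below the 500 bases needed for a call, so the gain of this bin lay outside that gene. Bins at chr2:91000001-92000000 and chr2:137000001-138000000, the latter at THSD7B, had folds of 4.96 and 4.53, and chr10:132000001-133000000, at TCERG1L, had 4.09.

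The imprinted cluster on chromosome 14 that holds the noncoding RNA gene MEG3 and DLK1, a Notch-family ligand, gained as a block. The bin chr14:101000001-102000000 went from 26.8 kb to 122.5 and 119.9 kb, a mean fold of 4.53. MEG3 had 876 bases in untreated cells and 6801 and 7107 after vorinostat. DLK1 was at 0 in untreated cells and had 2467 and 2477 bases after vorinostat, so no fold is given. Neither gene had a peak within 2 kb of its start in any list, so their gained bases lay more than 2 kb from the start.

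Of the 10 lost bins, 3 were neighbours on chromosome 10. The fold was 0.437 at chr10:57000001-58000000, 0.468 at chr10:56000001-57000000 and 0.511 at chr10:55000001-56000000, which together form the only run of lost 1 Mb bins longer than 1. PCDH15, a cadherin gene of the inner ear that spans parts of the last 2 of these bins, had 28162 bases in untreated cells and 12565 and 13346 after vorinostat. The bin chrX:35000001-36000000 went from 158.8 kb to 72.8 and 70.5 kb. At chr6:129000001-130000000, 136 kb became 87.9 and 82.4 kb, and LAMA2 in this bin had 93560 bases in untreated cells against 49376 and 48852. The others were chr14:40000001-41000000 at 0.494, chr16:35000001-36000000 at 0.521, chr8:46000001-47000000 at 0.545, chr4:52000001-53000000 at 0.644 and chr4:67000001-68000000 at 0.649. With gaps of up to 1000 bp joined, 6 bins were lost in place of 10.

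Bins of 100 kb showed finer gain and loss side by side. Of 21785 bins with at least 2 kb, 5722 were gained, which is 26.3%, and 1129 were lost, which is 5.18%. The 2 vorinostat lists were past 1.5-fold of each other in 7.69%. Of these bins, 2612 had under 2 kb in untreated cells. They entered only through their vorinostat value, a filter that favours gain, and 2157 of them were gained. Among the 19173 bins with at least 2 kb in untreated cells, 3565 were gained, which is 18.6%, and 1129 were lost. Over all 21785 bins the split was 4415 to 2078 relative to list totals, 3318 to 3399 with deposited peaks and 3280 to 6198 with a score of at least 1. Inside gained 1 Mb bins, 65.8% of the 100 kb bins were gained. Inside lost 1 Mb bins, 72.1% were lost and none was gained. Of the 2154 larger bins called neither way, 504 held both a gained and a lost 100 kb bin. The bin with the largest loss, chr17:38800001-38900000, went from 57.8 kb to 34.8 and 28.8 kb. It lies near SMARCE1, a subunit gene of the SWI/SNF remodelling complex, which fell from 16159 bases to 8020 and 6473. Within 2 kb of the SMARCE1 start 4000 bases became 3390 and 3391. KRT24, which lies in this bin, had 5448 bases against 4822 and 2878 and was called neither way.

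Gained 100 kb bins formed 3403 runs, of which 1158 held 2 or more neighbouring bins and 149 held 5 or more. The longest, chr22:48700001-50200000, held 15 bins in a row and went from 24.2 kb to 115 and 113 kb. Most of these bins had under 2 kb in untreated cells and entered only through their vorinostat value, so the run is a description. It ended at a densely marked stretch, where the next bin held 20.2 kb in untreated cells and 19.5 and 18.6 kb after vorinostat. The run chr4:4900001-6300000 held 14 bins with a fold of 2.47 and included STK32B, a kinase gene, with 5678 bases in untreated cells and 24678 and 22240 after vorinostat. In the bin just before this run, MSX1, a homeobox gene, fell from 4725 bases to 2575 and 2495. The run chr7:157200001-158400000 held 12 bins and lay over PTPRN2, a receptor phosphatase gene of secretory granules. PTPRN2 had 75825 bases in untreated cells and 243607 and 245126 after vorinostat. The run chr1:18000001-19200000, also 12 bins, held IGSF21 with 30271 bases against 97804 and 95396, and PAX7, a myogenic transcription factor gene, with 9054 against 42076 and 37661. At 1 Mb the longest gained run was chr10:127000001-135000000 with 8 bins and a fold of 1.81, and chr1:2000001-6000000 followed with 4 bins and 2.06. The latter held PRDM16, a zinc finger methyltransferase gene, whose 22960 bases became 120885 and 115092.

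The longest lost run, chrX:35100001-36000000, held 9 bins and went from 152 kb to 69.2 and 65.9 kb. Its bin with the lowest fold, chrX:35600001-35700000, fell from 17.6 kb to 2.78 and 2.53 kb. The run included MAGEB16, whose 749 bases near the start had no counterpart in either vorinostat list, although over the whole gene 1145 bases compared with 798 and 1069 and the gene was called neither way. On chr11:103000001-103400000, 4 lost bins in a row had a fold of 0.321. They lie over DYNC2H1, a motor gene of cilia, whose 44768 bases became 16100 and 11679. The plot along these runs gives each bin in all 3 lists.

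Genes were counted over their extent with 2 kb on either side. Of 108 genes in the 10 lists, 100 had at least 500 bases in either condition. Of these, 14 were gained, which is 14%, and 8 were lost, which is 8%, and the median fold was 1.00. The 2 vorinostat lists were past 1.5-fold of each other in 4%, namely ALB, INS, SOD1 and WT1. With deposited peaks 9 were gained and 26 lost, and relative to list totals 10 and 16. With joined peaks narrower than the narrowest untreated one left out, a choice made after seeing the data, 11 were gained and 12 lost, where CD274, DMD and ESR1 were no longer gained and CHEK2, EP300, MDM2 and NF1 were lost. The 8 lost genes stayed lost with deposited peaks and relative to list totals, whereas CD274, DMD and ESR1 were no longer called gained in either, ERG and KRT18 only with deposited peaks and SOX2 only relative to list totals. Gene lists are described by counts and medians beside these values.

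Genes used mainly in other tissues were the list with most gain. Of its 15 measured members 8 were gained and none was lost, and the median fold was 1.63. Over all 100 measured genes 14% were gained, and among the 97 with at least 500 bases in untreated cells 12.4%. KIT was at 0 in untreated cells and had 2239 and 2622 bases after vorinostat, with no fold against 0. It thus reached the 500-base minimum only after vorinostat. Gained members named because they were called included the transcription factor genes MYCN, with 1735 against 4822 and 5389, ERG, with 18166 against 39675 and 36875, and SOX2, with 1000 against 1699 and 2328, together with TERT, PDGFRA and DMD. The telomerase gene TERT had 2768 bases against 6415 and 8036, and PDGFRA 2597 against 5579 and 6471. The dystrophin gene DMD had 23631 against 36449 and 38094. Within 2 kb of the ERG start 783 bases became 112 and 132, so the ERG gain lay farther from its start. Gain was absent at the lowest members, since the muscle gene TTN had 10508 bases against 7633 and 10533 and the apolipoprotein gene APOA1 3502 against 3769 and 2907. The globin gene HBB and the pluripotency gene NANOG were at 0 in all 3 lists. The liver gene ALB had 509 bases against 873 and 475, and the insulin gene INS 412 against 314 and 1079.

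Markers of ovarian, epithelial and mesenchymal cells are given next, and they do not settle the label of the line. PAX8, the lineage factor of Mullerian epithelium, had 54096 bases in untreated cells and 58556 and 55287 after vorinostat, and its start window was fully covered in each list. MUC16, which encodes the tumour marker CA-125, was gained from 3761 to 12406 and 16627 bases. The oestrogen receptor gene ESR1 was gained from 12843 to 23323 and 20649. Within 2 kb of the start, MUC16 had 0 bases in untreated cells and 913 and 153 after vorinostat. Near the ESR1 start, 1466 bases became 401 and 1215, so the ESR1 gain lay farther from its start. WT1 had 13724 bases in untreated cells and 6577 and 9960 after vorinostat, and so was past the threshold in the first list and not in the second. In the epithelial and mesenchymal list 2 of 12 members were gained, 1 was lost and the median fold was 1.05. Over all 100 measured genes 14% were gained and 8% lost. The fibronectin gene FN1 went from 1095 to 4593 and 5403 bases and the keratin gene KRT18 from 3628 to 7083 and 6900. The repressor of epithelial genes ZEB1 fell from 28502 to 16350 and 18479 bases, while within 2 kb of its start 4000 bases became 3783 and 4000. The 3 untreated peaks near the KRT18 start became a single joined peak of 6258 or 8234 bp. The epithelial adhesion gene EPCAM had 13986 bases against 10291 and 10861 and was called neither way. In untreated cells the start windows of VIM, SNAI1 and ZEB1, genes linked to mesenchymal cells, were fully covered. Those of TWIST1, CD44, CDH2 and FN1 were covered to 90.9%, 82.85%, 76.2% and 17.7%. Those of the epithelial genes KRT7, EPCAM, KRT8, KRT18 and CDH1 were covered to 100%, 86.6%, 84.7%, 71.45% and 53.6%.

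DNA repair genes were the list with most loss. Of 8 members 3 were lost and none was gained, 6 were lower in both lists, and the median fold was 0.757. Over all 100 measured genes 8% were lost, and at a 2-fold threshold 0 were. BRCA2, a gene of homologous recombination, fell from 12117 to 6994 and 6460 bases. Its partner gene PALB2 fell from 15739 to 10251 and 9541, and the damage kinase gene ATM from 26725 to 17239 and 16684. CHEK2, a checkpoint kinase gene, lay just outside the threshold with 13749 bases against 9373 and 9508. The start windows of ATM and BRCA1 were fully covered in each list, so the ATM loss lay in the gene body.

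Among chromatin regulators 2 of 8 members were lost, against 8% of all 100 measured genes, and the median fold was 0.941. SIRT1, an NAD-dependent deacetylase gene outside the zinc-dependent HDACs, fell from 17959 to 8287 and 9494 bases, while within 2 kb of its start 3219 bases became 3478 and 3482. EZH2, the H3K27 methyltransferase gene, fell from 21656 to 13824 and 12409. The drug target genes HDAC1 and HDAC3 had folds of 0.902 and 1.10. The highest folds of the list were 1.23 at ARID1A and 1.19 at DNMT1. In the growth factor list 1 of 14 members was lost, none was gained and 10 were lower in both lists, with a median fold of 0.903. The kinase gene BRAF fell from 23156 to 14883 and 13462 bases. NF1, a brake on RAS, had 45798 against 32183 and 31417 and was called neither way. ERBB2, which is amplified in SKOV3, had 38610 bases against 36636 and 34824, and AKT1 and MET had folds of 1.31 and 1.06.

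In the cell cycle and apoptosis list none of 11 measured members was called, and the median fold was 1.07. CDKN1A had the highest fold and lay just under the threshold, with 6643 bases in untreated cells and 9847 and 9840 after vorinostat, 1.48 in each list. Near the upstream start used for the counts, 829 bases became 2435 and 3110. The printed start lies 2254 bp further into the gene. The untreated peak there was chr6:36645408-36649009, and the second vorinostat list held a joined peak at chr6:36643755-36649010 that reached farther upstream. In the first list the joined peak there was chr6:36643755-36645983. Most of that list's 9847 bases lay elsewhere in the counted extent, more than 2 kb from the upstream start. By the entered positions, the untreated peak and the second list's joined peak covered the printed bases whole. The first list's joined peak ended before them, so the lists differed there. MCL1, an anti-apoptotic gene, had a fold of 1.22. MDM2, a ubiquitin ligase gene, had 13560 bases against 9225 and 8275. CDKN2A was at 0 in all 3 lists, inside a stretch without peaks at chr9:21953083-22157756 in untreated cells and chr9:21951054-22130155 in both vorinostat lists.

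Of 7 immediate early and stress genes, 1 was lost, against 8% of all 100 measured genes. EGR1 fell from 7824 to 4071 and 3944 bases, as a single untreated peak at chr5:137798618-137807734 became a joined peak at chr5:137798703-137802742 in the first list and at chr5:137798696-137802042 in the second. JUN had 7323 bases in each list, which is its whole window. FOS and ATF3 had folds of 1.29 and 1.36 and KLF4 0.733, with no call. In the innate immunity list 2 of 5 measured members were gained, against 14% of all 100 measured genes, and the median fold was 1.22. TLR7, the sensor of single-stranded RNA, went from 210 bases in 1 peak to 1116 in 11 and 1001 in 8, a fold of 5.04 that rests on few bases. TLR7 reached the 500-base minimum only after vorinostat, and with joined peaks narrower than the narrowest untreated one left out its values were 210, 620 and 668. CD274, which encodes PD-L1, went from 2389 to 3673 and 3886 bases. The cytokine gene IL6 had a fold of 0.898. Housekeeping genes gave no call among 16 measured members, with a median fold of 0.988 and a range of 0.717 at SOD1 to 1.45 at ACTB. GAPDH had 5545 bases against 7953 in each list, ACTB 3846 against 5579 and 5567, and the nucleolar gene NPM1 11084 against 8315 and 8830. The tubulin gene TUBB was at 0 in all 3 lists, as were TNF and POU5F1. These 3 genes lie in chr6:29911212-33450031, where the untreated list had no peak and the vorinostat lists 4 and 5, so a 0 there is not read as absence of the mark.

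Most gene starts kept their peaks. Within 2 kb of the start, 92 of the 108 listed genes had peaks in all 3 lists and 7 had none in any. Peaks appeared in both vorinostat lists at 6 starts that had none in untreated cells, those of IFNB1, KIT, MUC16, PDGFRA, TERT and TLR7. The TLR7 start peak was 51 bp wide in both lists, which is narrower than any peak of the untreated list. No listed gene had start peaks in untreated cells and none in both vorinostat lists. Of 44 start windows covered to at least 90% in untreated cells, 33 were covered to at least 90% in both vorinostat lists. With every listed gene counted within 2 kb of its start, and not only these 44, 8 were gained and 5 lost. In the plot by gene list, folds ran from 0.495 at SIRT1 to 5.04 at TLR7.

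Joined bases per chromosome had mean folds of 1.07 on chromosome 13 to 1.24 on chromosome 22, and with deposited peaks each of the 23 chromosomes was below 1. Of the 1 Mb bins, 4.35% were gained on chromosome 13 and 21.7% on X. Of the 100 kb bins, 0.647% were lost on chromosome 22 and 8.63% on chromosome 13. Matched RefSeq promoters were available for 81 of the 108 genes. Their median GC content was 62.0% for 11 gained and 65.3% for 8 lost genes, against 65.3% for the 57 listed genes called neither way, 63.3% for all 81 and 58.3% over all promoters. The GC box letters occurred in 8 of the 11 gained and 3 of the 8 lost ones, and in 37 of the 57 called neither way, which at these numbers is a description.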

How the data were processed

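The analysis started from H3AcK9 ChIP-seq peak lists of SKOV3 wt cells, 1 for untreated cells and 2 for 1 vorinostat sample. The authors aligned reads with BWA and called peaks with MACS 1.4.2, per the submitters' processing notes. Each deposited peak has a chromosome, a start, an end and a score, whose scale is not given in the sources used here, so the score served only as a filter. Input samples and romidepsin lists were not used here. The labels name hg38, but 14 of 23 chromosomes hold peaks beyond the hg38 end and contig names are those of hg19, so coordinates were read as hg19 and never converted.

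Covered bases were computed with Python 3.11.15, NumPy 2.4.6 and pandas 2.3.3 and plotted with Matplotlib 3.10.9, with peaks joined across gaps of up to 508 bp. Functions that join and intersect intervals were tested on simulated peaks. Depth per sample is unknown. With 1 sample per condition no test was possible, and called means both vorinostat lists past 1.5-fold.

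No hg19 annotation was used. Gene extents in hg19 were entered by hand from memory, not read from a file. A gene was kept where chromosome and strand matched GENCODE 44 (hg38) and a transcript had the same length within 500 bp, which 108 of 118 listed and 34 of 35 added genes passed. This checks length, not position. For 70 kept genes another kept gene lay within 5 Mb, and in 59 of them the shift to GENCODE was within 1 kb of that neighbour's. A wrongly entered position would move the values of that gene, whereas peak and bin values use no gene position.

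In each list the 2 genes with the highest and the 2 with the lowest fold were named, with CDKN1A, ERBB2, TLR7, GAPDH, ACTB and CDKN2A, and further genes after their values were seen. Some genes that this rule names are counted but not reported here by name. Of the 1 Mb bins, the 8 with the highest and 8 with the lowest fold among called bins and the longest runs were named. The other 2 lost bins, and the 35 added genes, were chosen after the values were seen. Members and lists were chosen with earlier results of these data known. Alternatives were each list alone, filters on score and width, other gaps, bins shifted by 50% of their width, a 2-fold threshold, scaling to list totals, start windows and autosomes. Joined peak numbers and a minimum joined width of 127 bp beyond total bases, and entry on the untreated value alone, were added after seeing the data.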

Additional observations from a re-analysis of the deposited data

Results flagged for a closer look

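Peaks on contigs other than chromosomes 1 to 22 and X enter no comparison above. There were 319 in the first vorinostat list and 229 in the second, against 153 in the untreated list. They are given because both numbers lie above the untreated one. As with all peak numbers here, the lists differ in their smallest width and gap, and the part of this in the difference was not tested.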

How the results depend on the processing

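The fold in joined bases, 1.14, turned below 1 for peaks with a score of at least 1 (0.717), raw peaks of at least 300 bp (0.715) and gaps of up to 300 bp (0.975), and was 1.28 with gaps of up to 1000 bp and 1.11 for joined peaks at least as wide as the narrowest untreated one. Raw bases, 0.879, came to 0.623 with the score filter and 0.650 with the 300 bp filter. Peak number, 2.42, came to 1.77 with the score filter, 1.04 at 300 bp, 2.41 on autosomes, 1.68 joined and 1.23 joined at that minimum width. Gained and lost 1 Mb bins, 321 and 10, became 97 and 94 with raw lists, 156 and 30 with 300 bp gaps, 698 and 6 with 1000 bp gaps, 91 and 3 at 2-fold, 176 and 24 relative to list totals and 116 and 761 with the score filter. Lost bins came to 16 with the second list alone and with the minimum width. Gained and lost 100 kb bins, 5722 and 1129, became 3318 and 3399 with raw lists, 3280 and 6198 with the score filter and 3292 and 295 at 2-fold. Gained ones came to 3565 where bins entered on the untreated value alone, and lost ones to 2212 with 300 bp gaps, 622 with 1000 bp gaps, 2078 relative to list totals, 1713 with list 1 and 1776 with list 2. Gained and lost genes, 14 and 8, became 9 and 26 with raw lists, 8 and 5 in start windows and 9 and 0 at 2-fold, and 16 were lost relative to list totals. With raw lists the shares of untreated bases still covered, by rising width, were 21.5%, 25.5%, 35.96%, 55.3%, 69.3% and 76.7%, in the same order as joined. The causes of these changes were not tested. Of 95 alternatives 44 moved a value by less than the spread of the lists or a count by less than 1.5 times. No paired analysis was possible because each condition has 1 sample and the lists carry no shared replicate numbers. Without read numbers, depth sets an unknown limit on narrow peaks.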
